A study of Mus musculus with 12 samples.

Results

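This account covers 10 genes of bone morphogenetic protein (BMP) signaling, chosen by symbol, in intestinal stem cells (ISCs): the receptors *Bmpr1a* and *Bmpr2*, the signal transducers *Smad1* and *Smad5*, the inhibitors *Smad6*, *Smad7* and *Bambi*, and the target genes *Id1*, *Id2* and *Id3*. All 10 were found among the 47729 genes of the count table, and all 10 passed the filter on low counts in every comparison. RNA was sequenced in 12 libraries of 4 groups with 3 libraries each. The cells were the EGFP-bright, EpCAM+ CD24- CD31- CD45- TER119- fraction of small intestinal crypts from *Lgr5-EGFP-IRES-creERT2* mice of both sexes, aged 8 to 10 weeks. This knock-in allele, which places EGFP and an inducible Cre recombinase under the control of *Lgr5*, was carried by every group and is known to be active in only a part of the crypts. Ctrl mice (libraries 1, 2 and 3) went without food and water for as long as the restrained mice. Stress mice (libraries 1+2, 3 and 4+5+6, labeled CRS) were confined in a tube for 3 h on 1 day. The single day is taken from the study's account of this sequencing, while the hours in the tube and the fasting of Ctrl mice come from its method for restraint repeated over weeks, which it abbreviates CRS, and were not stated for this experiment. The labels say only restraint stress. Vehicle mice (libraries 3, 5 and 6) received an intraperitoneal injection of 20% sulfobutylether-β-cyclodextrin, and CORT mice (libraries 2, 4 and 5) received corticosterone at 5 mg/kg in that solution. The joined numbers of 2 Stress libraries read as pools of several mice, and the sex of the mice behind each library is not given in the sources used here. Total estimated counts were 16152289 to 16943362 in Ctrl, 15934907 to 17135770 in Stress, 16465961 to 31280267 in Vehicle and 29426183 to 69533214 in CORT, so that 2 CORT libraries were read most deeply and the third lay within the Vehicle range.

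BMP ligands bind paired type I and type II serine/threonine kinase receptors, which phosphorylate Smad1 and Smad5. These join Smad4, enter the nucleus and switch on target genes, among which *Id1*, *Id2* and *Id3* are the most widely used readouts. Id proteins lack a DNA-binding domain and hold basic helix-loop-helix (bHLH) factors in inactive dimers, while *Smad6*, *Smad7* and *Bambi* are themselves target genes and act as feedback inhibitors. In the intestine BMP activity is high toward the villus and is held low at the crypt base by antagonists from the surrounding stroma, where it limits stem cell self-renewal.

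*Id2* transcripts were lower in stressed ISCs than in Ctrl. Levels between libraries are given as CPM, counts scaled to library size with TMM factors. *Id2* stood at 34.0, 28.6 and 27.0 CPM in Ctrl libraries 1, 2 and 3 and at 12.9, 12.9 and 10.9 CPM in Stress libraries 1+2, 3 and 4+5+6. The highest Stress library lay below the lowest Ctrl library by a wide gap. The fitted log2 fold change was -1.29 (SE 0.15, 95% interval -1.63 to -0.94), a 2.44-fold lower level, with an adjusted p of 0.0033 by edgeR's quasi-likelihood test with Benjamini-Hochberg adjustment over all 13722 genes tested. It was the only 1 of the 10 genes past an adjusted p of 0.05 in this comparison, and it also passed 2-fold. Across all genes tested 1.89% passed the adjusted p and 0.751% passed both thresholds. *Id2* stayed past the threshold when any 1 of the 6 libraries was left out, with log2 fold changes from -1.35 to -1.18.

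*Id2* lies on the minus strand of chromosome 12 (mm10, 25093801 to 25096092). The stretch of its RefSeq promoter that no annotated exon covers, from 250 to 162 bases before the start (GRCm38.p6, chr12:25096254-25096342, minus strand), is shown because *Id2* carries the stress result, with the GC-rich hexamer GGCGCC, a BMP-responsive Smad1/Smad5 motif, in capitals. It lies inside the *Id2* gene as annotated by GENCODE, which starts upstream at 25097140, and annotated exons cover 161 of the 250 bases before the RefSeq start:
Id2: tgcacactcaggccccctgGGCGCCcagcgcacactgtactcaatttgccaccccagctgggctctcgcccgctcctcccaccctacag

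RefSeq promoters were at hand for 7 of the 10 genes, and the 250 bases before each start were searched on both strands for 3 motifs. GGCGCC, which reads the same on both strands, occurred before *Id2*, *Bmpr1a*, *Bmpr2* and 1 of the 3 starts of *Smad5*, and in 9.59% of all 32851 promoters of the table. The Smad palindrome GTCTAGAC occurred before none of the 7 genes and in 0.167% of all promoters. The hexamer AGAACA, one side of the glucocorticoid receptor's response element, occurred before *Bmpr2* and *Smad6* and in 16.1% of all promoters. *Id3* and *Smad1* held none of the 3 motifs in this window. These are matches of letters and were not tested for binding.

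The other Id genes were lower under stress as well but did not pass the adjusted threshold. *Id3*, on chromosome 4 (136143497 to 136145755, plus strand), stood at 51.9, 65.5 and 55.4 CPM in Ctrl and at 24.6, 43.6 and 31.4 CPM in Stress. No Stress library reached the Ctrl range, and Stress library 3 was the closest to it. Its log2 fold change was -0.79 (SE 0.19, 95% interval -1.21 to -0.38, edgeR adjusted p = 0.068). Without Stress library 3 it was -1.04, past the threshold with an edgeR adjusted p of 0.003, and without that library 849 genes in all passed, against 260 with it. With all 6 libraries *Id3* also passed among genes with at least 10 counts in every library (edgeR adjusted p = 0.048). *Id1*, on chromosome 2 (152736251 to 152737410, plus strand), stood at 63.5, 93.2 and 87.5 CPM in Ctrl and at 54.4, 58.3 and 61.8 CPM in Stress. Its groups were separated by a narrow gap, between Stress library 4+5+6 and Ctrl library 1. This gave a log2 fold change of -0.48 (SE 0.14, 95% interval -0.79 to -0.18, edgeR adjusted p = 0.121). Stress and Ctrl did not overlap for these 3 Id genes and overlapped for the other 7 genes, and they did not overlap for 20.4% of all genes tested.

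**Figure D1:**
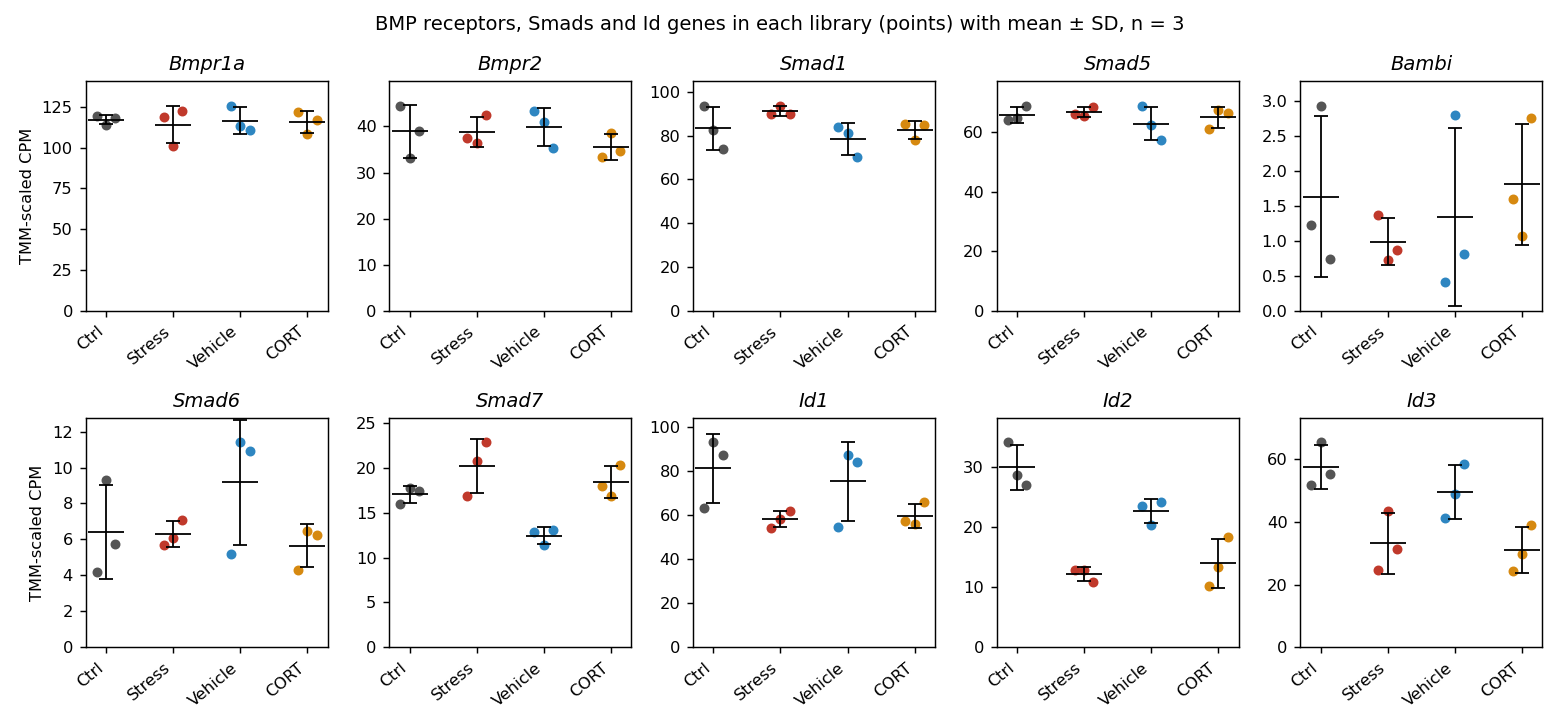
Level of each of the 10 genes in TMM-scaled CPM (vertical axes from 0) in the 4 groups. Each point is 1 library, horizontal bars are means and error bars are SDs of 3 libraries. The Stress libraries of *Id2* lie at 10.9 to 12.9 CPM, all below the Ctrl libraries at 27.0 to 34.0 CPM.

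After corticosterone the fitted log2 fold changes of the 3 Id genes were also below 0, and none of the 3 passed the adjusted threshold in the main edgeR fit. *Id2* stood at 23.5, 20.4 and 24.1 CPM in Vehicle libraries 3, 5 and 6 and at 10.1, 13.4 and 18.3 CPM in CORT libraries 2, 4 and 5. The groups did not overlap, and CORT library 5 was nearest to the Vehicle range. The fitted log2 fold change was -0.71 (SE 0.21, 95% interval -1.18 to -0.24, edgeR adjusted p = 0.071), and without CORT library 5 it was -0.95 with an edgeR adjusted p of 0.026. In the fit over all 12 libraries *Id2* passed too, with an edgeR adjusted p of 0.0321. *Id3* stood at 41.3, 48.9 and 58.5 CPM in Vehicle and at 24.3, 29.9 and 39.1 CPM in CORT. Again CORT library 5 was nearest to the Vehicle range and did not enter it. The log2 fold change of *Id3* was -0.68 (SE 0.18, 95% interval -1.09 to -0.27, edgeR adjusted p = 0.051). It crossed the threshold without Vehicle library 3 (adjusted p = 0.043) and without CORT library 5 (adjusted p = 0.025), both by edgeR. With all 6 libraries *Id3* also passed by edgeR with DESeq2 size factors (adjusted p = 0.0488). It passed as well with no filter on low counts (edgeR adjusted p = 0.0402) and with at least 10 counts in every library (edgeR adjusted p = 0.0415). *Id1* stood at 54.7, 87.3 and 84.3 CPM in Vehicle and at 57.4, 55.9 and 66.2 CPM in CORT. Its groups overlapped because Vehicle library 3 lay below all CORT libraries. Its log2 fold change was -0.34 (SE 0.16, 95% interval -0.70 to 0.02, edgeR adjusted p = 0.241), and without Vehicle library 3 it was -0.52 with an edgeR adjusted p of 0.019.

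DESeq2, which the study used, placed more Id genes past an adjusted p of 0.05. Its adjusted p-values under stress were 9.5e-09 for *Id2*, 0.0018 for *Id3* and 0.037 for *Id1*, and after corticosterone they were 0.0061 for *Id2*, 0.0013 for *Id3* and 0.134 for *Id1*. The third gene it called after corticosterone was *Smad7*, with an adjusted p of 0.0103. DESeq2 called 3 of the 10 genes in each comparison against 1 by edgeR, and it also called more of all genes, 3.89% of 14311 under stress and 13.5% of 13213 after corticosterone.

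Of the 10 genes *Smad7* was the one past the edgeR threshold after corticosterone, and it was higher. *Smad7*, on chromosome 18 (75367529 to 75395935, plus strand), encodes an inhibitory Smad that blocks receptors of both the BMP and the TGF-β branch. It stood at 12.9, 11.4 and 13.1 CPM in Vehicle and at 18.0, 16.9 and 20.4 CPM in CORT. The lowest CORT library lay above the highest Vehicle library. It rose by a log2 fold change of 0.56 (SE 0.14, 95% interval 0.24 to 0.88), a 1.47-fold higher level, with an edgeR adjusted p of 0.043. Across all 14656 genes tested 8.13% passed that threshold, and 28.7% had groups that did not overlap, as did 3 of the 10 genes here (*Id2*, *Id3* and *Smad7*), so both of these shares were near those of all genes. The *Smad7* call was lost when any 1 of the 6 libraries was left out, with edgeR adjusted p-values of 0.067 to 0.157 and log2 fold changes of 0.48 to 0.62. It was also lost in all 3 limma fits of log2(FPKM), with adjusted p-values of 0.130 to 0.230 and differences of 0.33 to 0.42 on the log2(FPKM + pseudocount) scale. Under stress *Smad7* stood at 16.9, 20.7 and 22.8 CPM against 16.01, 17.8 and 17.4 CPM in Ctrl. These groups overlapped, and the log2 fold change was 0.24 (95% interval -0.11 to 0.60, edgeR adjusted p = 0.539).

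Vehicle and Ctrl were compared in the same way. Vehicle *Smad7* lay below Ctrl without overlap, with a log2 fold change of -0.45 (95% interval -0.79 to -0.11, edgeR adjusted p = 0.270), and the CORT libraries, at 16.9 to 20.4 CPM, overlapped the Ctrl libraries at 16.01 to 17.8 CPM. Vehicle *Id2* lay below Ctrl without overlap as well, with a log2 fold change of -0.39 (95% interval -0.70 to -0.08, edgeR adjusted p = 0.296). Between Vehicle and Ctrl 0 of the 10 genes passed the edgeR adjusted threshold, 2 had an unadjusted p under 0.05 and 0 passed by DESeq2, while 0.799% of all 13642 genes passed by edgeR. The groups did not overlap for 2 of the 10 genes, *Smad7* and *Id2*, and for 16.3% of all genes tested. Stress and Vehicle were both compared with the same Ctrl libraries, and CORT and Ctrl with the same Vehicle libraries, so these comparisons are not independent.

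**Figure D2:**
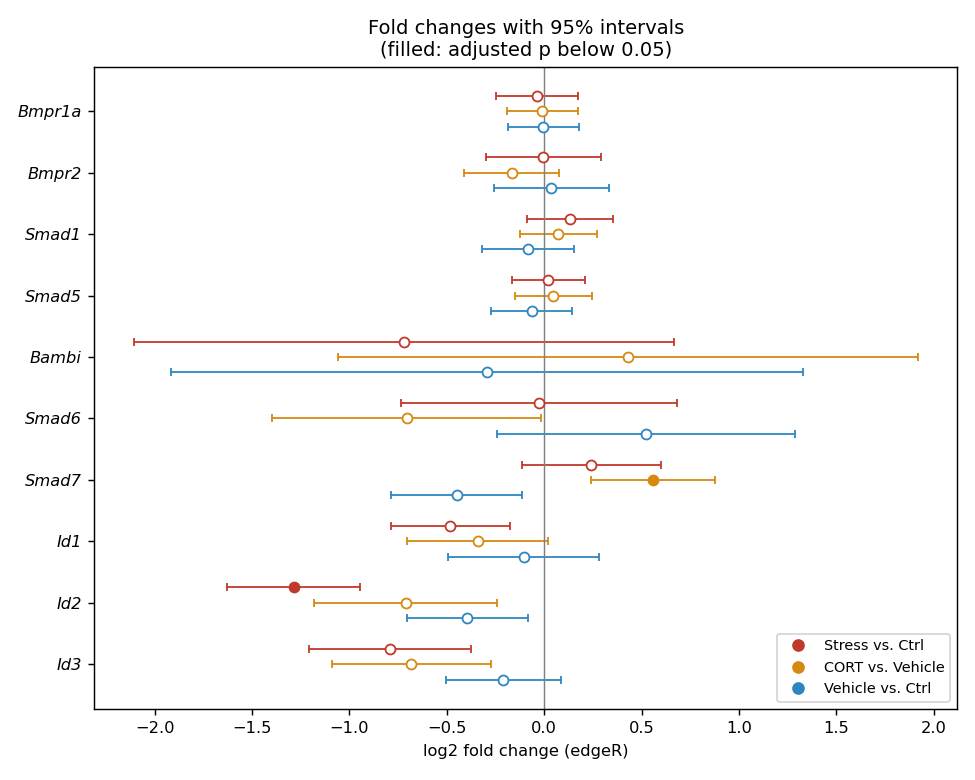
Log2 fold changes of the 10 genes (horizontal axis) by edgeR in 3 comparisons, with 95% intervals as bars. Filled points passed an adjusted p of 0.05, which holds for *Id2* in Stress vs. Ctrl at -1.29 and *Smad7* in CORT vs. Vehicle at 0.56.

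Whether the response to restraint differed from the response to corticosterone was tested with the interaction over 12 libraries. Of the 10 genes 0 passed the edgeR adjusted threshold, 1 had an unadjusted p under 0.05 and 0 passed by DESeq2, and 0.388% of all 14415 genes passed by edgeR. The 1 gene was *Id2*, whose log2 fold change was 0.58 lower under restraint than after corticosterone, that is -0.58 with a 95% interval of -1.15 to -0.01 (edgeR adjusted p = 0.398). Without CORT library 5 it was -0.34, with an unadjusted edgeR p of 0.159, and without CORT library 2 it was -0.77, with an unadjusted edgeR p of 0.0054, and the adjusted p lay between 0.217 and 0.682 when any 1 library was left out. For *Id3* the difference was -0.11 (95% interval -0.74 to 0.51), for *Id1* -0.15 (95% interval -0.65 to 0.36) and for *Smad7* -0.32 (95% interval -0.75 to 0.11). A difference in response of either sign remained possible for these 3 genes within the intervals.

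The receptors and the receptor-activated Smads moved little, and their intervals were narrow. *Bmpr1a* encodes the type I receptor through which BMP restrains ISCs. It stood at 114 to 120 CPM in Ctrl, 101 to 122 CPM in Stress, 110.5 to 126 CPM in Vehicle and 108.5 to 122 CPM in CORT. All 4 groups overlapped, with log2 fold changes of -0.04 under stress (95% interval -0.25 to 0.17) and -0.01 after corticosterone (95% interval -0.19 to 0.17). The gene spans 34410734 to 34503341 on the minus strand of chromosome 14 and overlaps the antisense gene *Gm17110*, whose reads cannot be told apart without strand. *Bmpr2*, the type II receptor on chromosome 1 (59763400 to 59879014, plus strand), stood at 33.2 to 44.5 CPM in Ctrl, 36.3 to 42.5 CPM in Stress, 35.4 to 43.4 CPM in Vehicle and 33.4 to 38.7 CPM in CORT. Its log2 fold changes were -0.005 under stress (95% interval -0.30 to 0.29) and -0.17 after corticosterone (95% interval -0.41 to 0.08).

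*Smad1* and *Smad5* encode the transducers that the BMP receptors phosphorylate. *Smad1*, on chromosome 8 (79338395 to 79399518, minus strand), stood at 73.8 to 93.5 CPM in Ctrl and 89.8 to 93.8 CPM in Stress, with a log2 fold change of 0.13 (95% interval -0.09 to 0.35), and its log2 fold change after corticosterone was 0.07 (95% interval -0.12 to 0.27). *Smad5*, on chromosome 13 (56703010 to 56742377, plus strand), stood at 64.2 to 69.0 CPM in Ctrl and 65.7 to 68.7 CPM in Stress, with a log2 fold change of 0.02 (95% interval -0.17 to 0.21), and after corticosterone it was 0.05 (95% interval -0.15 to 0.24). For *Bmpr1a*, *Smad1* and *Smad5* both treatments' intervals lay within 0.4 of 0 on the log2 scale. These are transcript levels, and phosphorylated Smad was not measured in these files.

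*Smad6* and *Bambi* were expressed at low levels and varied between libraries of the same group. *Smad6*, on chromosome 9 (63953076 to 64022059, minus strand), encodes an inhibitory Smad that acts mainly on BMP receptors. It stood at 4.21, 9.32 and 5.73 CPM in Ctrl and 5.72, 6.06 and 7.10 CPM in Stress, with a log2 fold change of -0.03 (95% interval -0.74 to 0.68). It stood at 5.17, 11.4 and 10.9 CPM in Vehicle and 4.29, 6.45 and 6.26 CPM in CORT. Vehicle library 3 lay among the CORT libraries and the other 2 Vehicle libraries lay above them. The log2 fold change was -0.71 (95% interval -1.40 to -0.02, edgeR adjusted p = 0.203), and without Vehicle library 3 it was -0.99 with an edgeR adjusted p of 0.042. *Bambi*, a decoy receptor without a kinase domain on chromosome 18 (3507957 to 3516404, plus strand), had 7 to 107 estimated counts per library. With up to 4 counts per read pair, 12 counts correspond to 3 read pairs, and Vehicle library 3 was below this and Ctrl library 3 and Stress library 3 were at it. Its log2 fold changes of -0.72 under stress (95% interval -2.11 to 0.67) and 0.43 after corticosterone (95% interval -1.06 to 1.92) were imprecise, and the intervals held a 2-fold lower level under stress and a 2-fold difference either way after corticosterone. The latter value was 1.497 without Vehicle library 5 (edgeR adjusted p = 0.204), 0.02 without Vehicle library 3, 0.15 without Vehicle library 6 and 0.0067 without CORT library 5.

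Levels between genes were compared per length, as FPKM. In Ctrl *Id1* was the most abundant of the 10 genes at 77.1 ± 15.4 FPKM (SD, n = 3), followed by *Id3* at 42.3 ± 5.0, *Smad1* at 24.2 ± 2.6, *Id2* at 21.1 ± 2.5 and *Bmpr1a* at 18.0 ± 0.57 FPKM. *Smad5* followed at 9.20 ± 0.41, *Smad7* at 3.63 ± 0.25, *Bmpr2* at 2.71 ± 0.41, *Smad6* at 1.93 ± 0.77 and *Bambi* at 0.28 ± 0.20 FPKM. Neighbors in this order were separated in all libraries for 7 of 9 pairs, and *Smad1* with *Id2* and *Bmpr2* with *Smad6* overlapped. In Stress *Id2* fell to sixth place at 8.57 ± 0.59 FPKM, overlapping *Smad5* at 9.16 ± 0.47, and *Id3* at 24.7 ± 6.3 overlapped *Smad1* and *Bmpr1a*. In CORT *Id2* at 9.42 ± 2.67 FPKM overlapped *Smad5* too.

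The 3 Id genes can be summed per length as a measure of total Id transcript. The sum was 120.5, 155 and 146 FPKM in Ctrl and 77.4, 91.7 and 91.9 FPKM in Stress. All Stress libraries lay below all Ctrl libraries. The sum was 99.61, 136 and 139 FPKM in Vehicle and 78.8, 77.8 and 99.55 FPKM in CORT, where the groups touched without overlapping. *Id2* made up 12.9 to 19.9% of the sum in Ctrl, 8.6 to 11.6% in Stress, 10.9 to 16.8% in Vehicle and 9.0 to 12.4% in CORT, and *Id1* made up the largest share in every library, at 49.4 to 68.3%.

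**Figure D3:**
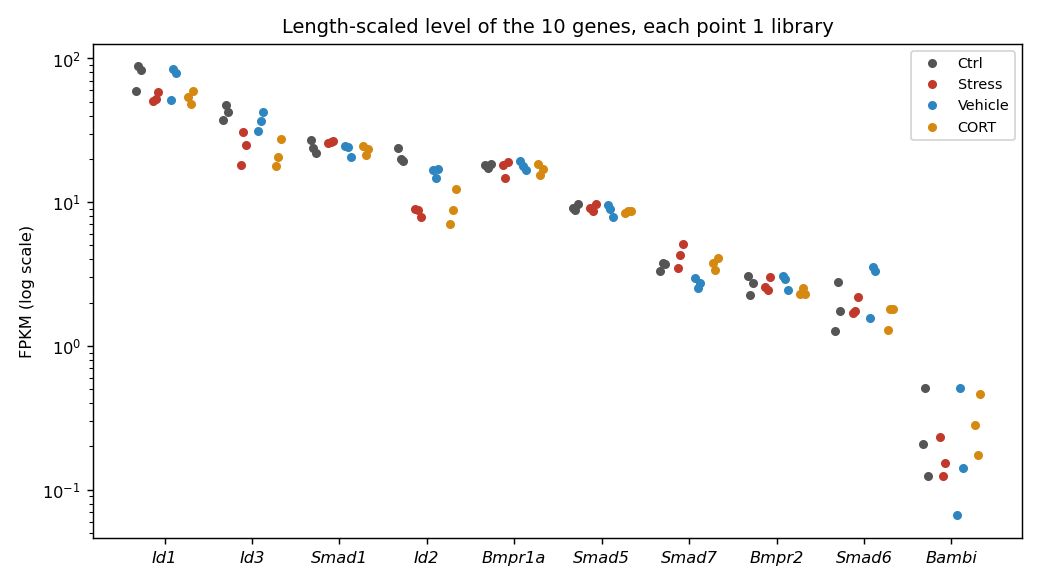
FPKM of the 10 genes on a log axis, ordered by the Ctrl mean, with 1 point per library and 1 color per group. *Id1* heads the order at 77.1 FPKM in Ctrl and *Bambi* closes it at 0.28 FPKM.

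The other genes of the pathway were read from 7 lists of 69 genes. Of these, 34 had a mean under 1 FPKM over the 12 libraries, 12 of them listed at 0 in every library. In Stress vs. Ctrl 40 of the 69 were tested and 2 passed the edgeR threshold, 1 higher and 1 lower, where 1.89% of all genes passed, with a median log2 fold change of -0.04 beside -0.003 for all genes. In CORT vs. Vehicle 42 were tested and 8 passed, 3 higher and 5 lower, where 8.13% of all genes passed, with a median of -0.01 beside 0.01 for all genes. Without CORT library 4 only 1 of these 8 was called, *Tgif2*. Between Vehicle and Ctrl 0 of 41 passed by edgeR, 6 had an unadjusted p under 0.05 and 2 passed by DESeq2.

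Among the 11 ligands, *Bmp7* and *Bmp3* were the most abundant, and *Bmp4*, *Bmp5* and *Gdf6* were listed at 0 FPKM in every library. *Bmp3*, which is known to oppose the osteogenic BMPs, was higher after corticosterone. It stood at 37.9, 57.1 and 50.7 CPM in Vehicle and at 78.6, 82.9 and 68.1 CPM in CORT. The groups did not overlap, and the log2 fold change was 0.65 (SE 0.14, edgeR adjusted p = 0.023). The call held in 3 of the 6 fits with a library left out and was lost without Vehicle library 6, CORT library 2 or CORT library 4, with edgeR adjusted p-values of 0.060 to 0.099. Under stress its log2 fold change was 0.53 (SE 0.18, edgeR adjusted p = 0.189) with overlapping groups. *Bmp7* stood at 8.30 ± 0.41 FPKM in Ctrl (SD, n = 3), and its log2 fold changes were -0.19 under stress and -0.21 after corticosterone, neither past the threshold.

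Of the 9 other receptors and co-receptors 5 were tested and 0 passed in either treatment comparison by edgeR. At an unadjusted p under 0.05 there were 0 under stress and 1 after corticosterone, and DESeq2 called 0 and 1. *Rgmb*, a membrane-anchored BMP co-receptor, was the most abundant of them at 107.6 ± 11.7 FPKM in Ctrl (SD, n = 3). It stood at 266, 262 and 229.9 CPM in Vehicle and 172.5, 188 and 230.4 CPM in CORT, where CORT library 5 just exceeded Vehicle library 6. The log2 fold change was -0.36 (SE 0.11, edgeR adjusted p = 0.091). *Neo1*, which encodes the receptor neogenin that binds Rgm proteins, had log2 fold changes of 0.09 under stress and -0.14 after corticosterone, neither past the threshold.

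All 11 of the remaining Smads and nuclear partners were tested. By edgeR 2 were higher after corticosterone, where 8.13% of all genes passed, and 0 passed under stress. At an unadjusted p under 0.05 there were 4 under stress, and DESeq2 called 0. *Smad4*, the partner shared by BMP and TGF-β Smads, stood at 166.5, 173 and 175 CPM in Vehicle and 232, 198 and 209 CPM in CORT. The groups did not overlap, and the log2 fold change was 0.31 (SE 0.08, edgeR adjusted p = 0.043), a call lost without any 1 of the 6 libraries. *Tob1*, an antiproliferative protein known to dampen BMP Smads, stood at 47.5, 58.2 and 53.0 CPM in Vehicle and 67.2, 73.4 and 65.2 CPM in CORT, with a log2 fold change of 0.37 (SE 0.09, edgeR adjusted p = 0.039), a call that held without Vehicle library 5 and was lost without any 1 of the other 5 libraries. Under stress the log2 fold changes were 0.29 for *Smad4* (edgeR adjusted p = 0.136) and 0.22 for *Tob1* (edgeR adjusted p = 0.302), each with groups that did not overlap. *Fkbp1a*, which encodes a protein that holds type I receptors inactive, was the most abundant of the list at 117 ± 13.2 FPKM in Ctrl (SD, n = 3), with log2 fold changes of -0.10 under stress and -0.03 after corticosterone.

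Of the 11 secreted antagonists listed, 9 had a mean under 1 FPKM over the 12 libraries. *Nog*, *Grem1*, *Chrdl1*, *Bmper* and *Sostdc1* were listed at 0 FPKM in all 12 libraries. *Twsg1* at 17.4 ± 0.13 and *Fstl1* at 9.65 ± 0.17 FPKM in Ctrl (SD, n = 3) were the most abundant, and neither passed the threshold in any of the 4 tests by edgeR. *Chrd*, which encodes the antagonist chordin, stood at 0.53, 0.47 and 1.49 CPM in Vehicle and 3.99, 2.84 and 2.10 CPM in CORT, without overlap, with a log2 fold change of 1.78 (SE 0.49, edgeR adjusted p = 0.059). Of the 3 antagonists tested in that comparison 0 passed by edgeR, 1 had an unadjusted p under 0.05 and 1 passed by DESeq2. *Chrd* had 16, 12 and 4 counts in Ctrl, 0 in all Stress libraries and 9, 8 and 46 in Vehicle, mostly at or under the 12 counts of 3 read pairs, and it was too low to be tested in Stress vs. Ctrl.

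Among 6 further BMP targets 3 were tested. *Klf4*, a zinc finger factor of differentiated gut epithelium, was lower after corticosterone. It stood at 17.7, 18.6 and 21.1 CPM in Vehicle and 7.41, 12.4 and 12.0 CPM in CORT, without overlap, and the log2 fold change was -0.86 (SE 0.21, edgeR adjusted p = 0.035), a call lost without any 1 of the 6 libraries, with edgeR adjusted p-values of 0.050 to 0.099. Under stress the log2 fold change of *Klf4* was 0.02 (SE 0.19). *Atoh8*, a bHLH factor induced by BMP, had log2 fold changes of -0.20 under stress and -0.31 after corticosterone, neither past the threshold.

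The bHLH factors that Id proteins bind, with their relatives, made up 7 genes, all of them tested. By edgeR 1 passed under stress, where 1.89% of all genes passed, and 1 after corticosterone, where 8.13% passed. DESeq2 called 3 of the 7 under stress and 1 after corticosterone, where it called 3.89% and 13.5% of all genes. *Ascl2*, a bHLH master regulator of the ISC state, was lower in both comparisons. It stood at 148, 138 and 146.5 CPM in Ctrl and 53.8, 68.9 and 61.8 CPM in Stress, with a log2 fold change of -1.23 (SE 0.10, edgeR adjusted p = 0.00034), and at 149, 171 and 162 CPM in Vehicle and 59.2, 75.7 and 107.5 CPM in CORT, with a log2 fold change of -0.998 (SE 0.18, edgeR adjusted p = 0.011). The stress call held without any 1 library, and the corticosterone call was lost without CORT library 4, with an edgeR adjusted p of 0.059. *Tcf3*, which encodes the E proteins E12 and E47, was the most abundant E protein gene, with log2 fold changes of -0.36 under stress (SE 0.09, edgeR adjusted p = 0.087) and -0.20 after corticosterone (SE 0.07, edgeR adjusted p = 0.116), each with groups that did not overlap. The summed FPKM of *Tcf3*, *Tcf4* and *Tcf12* was 99.3 to 107 in Ctrl, 84.7 to 92.4 in Stress, 96.3 to 101 in Vehicle and 82.1 to 90.2 in CORT. *Hes1*, a Notch target of the same family, had log2 fold changes of -0.41 under stress (edgeR adjusted p = 0.165) and 0.11 after corticosterone.

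The TGF-β and activin branch uses other type I receptors and Smads. Of its 14 listed genes 8 were tested under stress and 9 after corticosterone. By edgeR 1 passed the threshold under stress, where 1.89% of all genes passed, and 3 after corticosterone, where 8.13% passed. *Tgif2*, a repressor of TGF-β Smads, stood at 49.8, 45.5 and 44.3 CPM in Vehicle and 22.0, 22.4 and 29.1 CPM in CORT, with a log2 fold change of -0.93 (SE 0.13, edgeR adjusted p = 0.0028), a call that held without any 1 library. *Acvr1b*, the activin type I receptor, fell from 128, 123 and 111 CPM to 91.3, 95.9 and 87.2 CPM, with a log2 fold change of -0.40 (SE 0.08, edgeR adjusted p = 0.017). *Tgfbr2*, the TGF-β type II receptor, fell from 47.2, 39.3 and 51.3 CPM to 33.7, 31.1 and 33.9 CPM, with a log2 fold change of -0.49 (SE 0.11, edgeR adjusted p = 0.029). Each of these 2 calls held in 1 of the 6 fits with a library left out, without Vehicle library 6 for *Acvr1b* and without Vehicle library 5 for *Tgfbr2*, and the edgeR adjusted p otherwise reached 0.075 and 0.130. *Tgif2*, *Acvr1b* and *Tgfbr2* did not pass the threshold under stress, and their difference between the treatments did not pass in the interaction test by edgeR, while 1 of the 3, *Tgif2*, passed it by DESeq2. *Acvr1c*, a type I receptor for activins and nodal, was higher under stress, at 5.26, 8.19 and 5.36 CPM in Ctrl and 17.5, 11.3 and 17.8 CPM in Stress (log2 fold change 1.31, SE 0.26, edgeR adjusted p = 0.035), a call that held without Stress library 3 and was lost without any 1 of the other 5 libraries. *Tgif1*, the most abundant of the branch at 59.9 ± 5.4 FPKM in Ctrl (SD, n = 3), had log2 fold changes of 0.09 and 0.10.

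**Figure D4:**
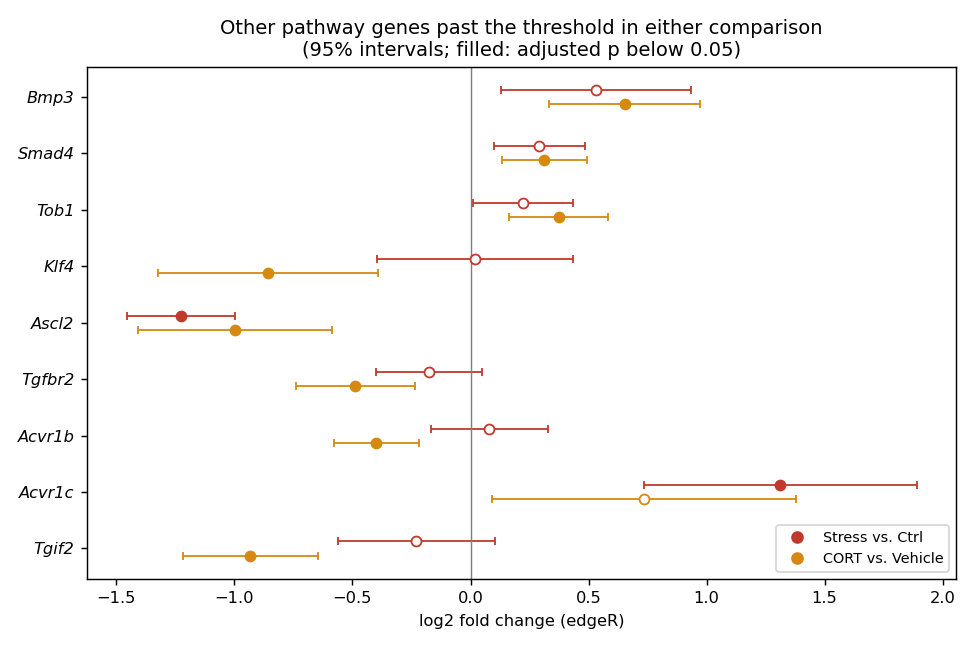
Log2 fold changes (horizontal axis) with 95% intervals of the 9 further pathway genes past an adjusted p of 0.05 in Stress vs. Ctrl or CORT vs. Vehicle by edgeR, with those past it filled. *Ascl2* is filled in both comparisons, at -1.23 and -0.998.

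Markers of the sorted cells and of other cell types were read beside these results. In bulk RNA, fewer cells of a type and less RNA per cell cannot be told apart. The 6 ISC markers summed to 4510 to 6134 FPKM in every library, most of it from *Olfm4*, which alone stood at 3886 to 5473 FPKM. By edgeR 1 of 6 was lower under stress (*Ascl2*), where 1.89% of all genes passed. After corticosterone 3 of 6 were lower (*Ascl2*, *Lgr5* and *Smoc2*), where 8.13% passed. DESeq2 called 2 of 6 under stress and 3 of 6 after corticosterone, where it called 3.89% and 13.5% of all genes. The 6 enterocyte markers, led by *Fabp1*, summed to 53.1, 52.3 and 65.6 FPKM in Ctrl and to 357, 158.5 and 1001 FPKM in Stress libraries 1+2, 3 and 4+5+6. All 6 were higher under stress past the edgeR threshold, with a median log2 fold change of 3.20. Stress library 3 had the smallest enterocyte sum of its group, still above every Ctrl library. *Id2* stood at 12.9 CPM in this library and in library 1+2. Without Stress library 4+5+6, which had the largest sum, the log2 fold change of *Id2* was -1.21 with an edgeR adjusted p of 0.013. *Id3* differed from *Id2* here, since Stress library 3 had the highest *Id3* of its group, at 43.6 CPM against 24.6 and 31.4 CPM, and without that library its log2 fold change was -1.04. Without Stress library 4+5+6 the log2 fold change of *Id3* was -0.75 with an edgeR adjusted p of 0.184. *Id1* was lowest in Stress library 1+2, at 54.4 CPM, and highest in library 4+5+6, at 61.8 CPM. Goblet markers, led by *Tff3*, summed to 315 to 398.5 FPKM in Ctrl and to 502, 322 and 793 FPKM in Stress, with 2 of 6 higher, and Paneth markers, led by *Defa24*, to 182 to 239 FPKM in Ctrl and to 342, 207 and 347.5 FPKM in Stress, with 1 of 6 higher. The part of enterocyte, goblet and Paneth RNA in the lower *Id2* under stress, and in the *Id1* and *Id3* differences that did not pass by edgeR, was not tested.

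After corticosterone the enterocyte sum was 60.5, 129 and 68.1 FPKM in Vehicle and 25.3, 59.7 and 53.4 FPKM in CORT, with 0 of 6 markers past the threshold by edgeR, 1 at an unadjusted p under 0.05 and 0 by DESeq2. *Fabp1* alone gave 34.0, 95.5 and 48.6 FPKM of the Vehicle sums and 15.85, 29.5 and 24.3 FPKM of the CORT sums. The median log2 fold change of the 6 markers was -0.14, with 5 lower and 1 higher. The Paneth sum was 227, 248 and 247 FPKM in Vehicle and 127, 141 and 121 FPKM in CORT, and 4 of 6 Paneth markers (*Mmp7*, *Defa17*, *Defa24* and *Itln1*) were lower by edgeR, where 8.13% of all genes passed. Goblet markers summed to 260 to 467 FPKM in Vehicle and 269 to 438 FPKM in CORT, with 0 of 6 past the threshold by edgeR, 0 at an unadjusted p under 0.05 and 0 by DESeq2. Enteroendocrine markers, led by *Chgb*, summed to 4.51 to 25.8 FPKM and tuft cell markers, led by *Pou2f3*, to 1.40 to 4.60 FPKM over the 12 libraries, and *Pou2f3* was the only marker of both lists past the edgeR threshold in either treatment comparison, lower after corticosterone. Blood markers summed to at most 1.72 FPKM, led by *Itgam*, endothelial markers to at most 1.06 FPKM, led by *Pecam1*, which was higher after corticosterone, with *Cdh5*, *Kdr*, *Cldn5* and *Emcn* at 0 in every library, and fibroblast markers to at most 0.18 FPKM, led by *Dcn*, with *Col1a2*, *Col3a1* and *Lum* at 0. CORT library 5 had the highest Id levels of its group, with an enterocyte sum of 53.4 FPKM and a Paneth sum of 121 FPKM. Whether enterocyte or Paneth cell RNA had a part in the fitted Id differences after corticosterone was not tested. None of these 3 differences passed the threshold in the main edgeR fit, while by DESeq2 *Id2* (adjusted p = 0.0061) and *Id3* (adjusted p = 0.0013) passed.

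**Figure D5:**
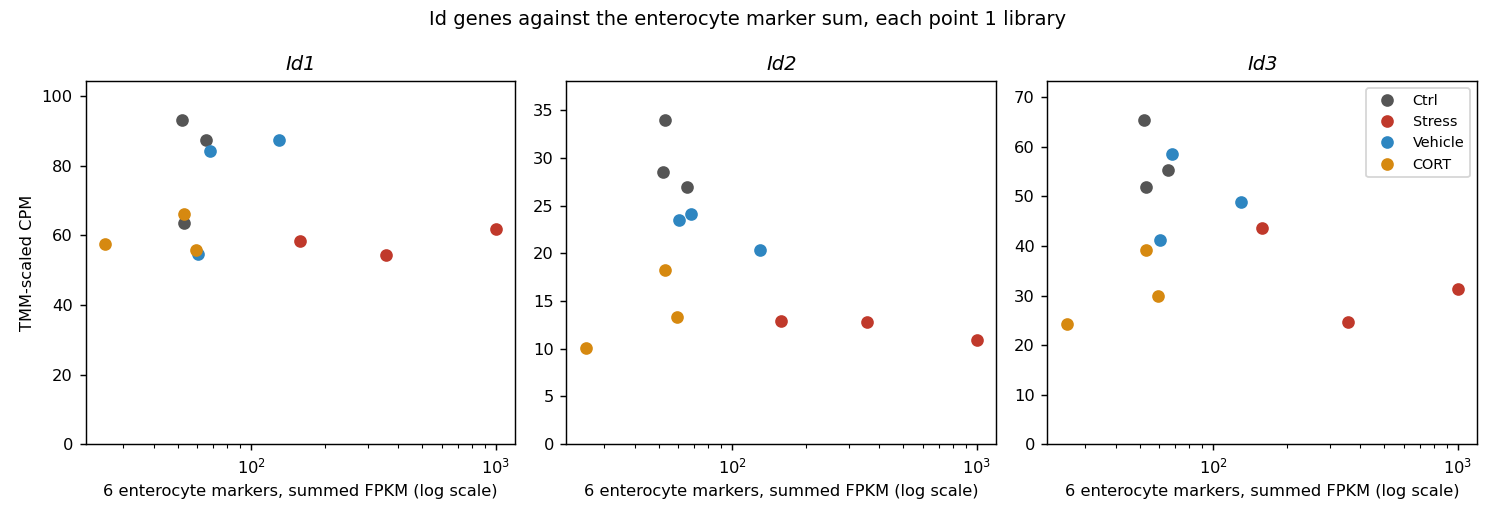
Level of *Id1*, *Id2* and *Id3* (vertical axes, TMM-scaled CPM) against the summed FPKM of 6 enterocyte markers (horizontal log axis), with 1 point per library. The Stress libraries spread from 158.5 to 1001 FPKM of markers, all above the Ctrl libraries at 52.3 to 65.6 FPKM. *Id2* in the Stress libraries lies between 10.9 and 12.9 CPM and *Id1* between 54.4 and 61.8 CPM. *Id3* is highest, at 43.6 CPM, in the Stress library with the fewest enterocyte markers and stands at 24.6 and 31.4 CPM in the other 2.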

How the data were processed

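Labels gave the group of every library, and no batch or sequencing date. Reads were 150-bp pairs, which the authors mapped to the mouse genome mm10. The submitters' processing notes name HISAT2 2.2.1 and StringTie 2.2.1, and the methods of the study name other versions and featureCounts. Estimated counts for each gene, as deposited, equal 75 covered bases per count, which StringTie's counting script gives by default, and were taken as whole numbers. FPKM values per gene, deposited as well, were used for levels between genes and marker sums, and the deposited coverage per base was used only to check the unit of the counts. No column lacked a sample (0 columns).

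The members, the pathway lists, the markers and the rule for named genes (all members, list genes past the threshold in any test, and the 2 most abundant genes of each list) were chosen with earlier results of these data known. A gene of the antagonist list is not reported here. Tests ran on all genes with edgeR 4.0.16 in R 4.3.3 (quasi-likelihood F-test, TMM, filterByExpr, Benjamini-Hochberg adjustment) on the 6 libraries of a comparison, and on 12 for the interaction, and were tested on simulated data. Calls use an adjusted p-value of 0.05. Intervals use the moderated degrees of freedom. Alternatives were DESeq2 1.42.0, its size factors in edgeR, other filters on low counts, limma 3.58.1 on log2(FPKM + 1) and log2(FPKM + 0.1), 1 fit over 12 libraries and each library left out. Libraries are not stated to be single animals, so p-values measure the spread between these libraries. Counting is not stated to use strand.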

Additional observations from a re-analysis of the deposited data

Results flagged for a closer look

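Groups hold 3 libraries each, too few to look for single outlying libraries. A difference between the response to restraint and the response to corticosterone passed edgeR's interaction test for none of the 10 BMP and Id genes and for 3 of the genes read beside them. *Chrd* had an adjusted p of 0.0358, but it had 0 counts in all Stress libraries and was too low to be tested in Stress vs. Ctrl. The call was lost in 8 of the 12 fits with a library left out, and no difference in response is read from it. The enterocyte marker *Fabp1* had an adjusted p of 0.0294, at 9.06, 8.61 and 10.9 CPM in Ctrl, 54.8, 32.7 and 212 CPM in Stress, 20.7, 57.0 and 29.9 CPM in Vehicle and 9.81, 19.4 and 15.7 CPM in CORT, and Vehicle was also higher than Ctrl, with an edgeR adjusted p of 0.0183. The Paneth marker *Mmp7* had an adjusted p of 0.000688, at 25.7, 24.0 and 16.4 CPM in Ctrl, 40.6, 40.1 and 39.9 CPM in Stress, 79.1, 92.6 and 99.9 CPM in Vehicle and 31.8, 35.8 and 42.0 CPM in CORT, and Vehicle was also higher than Ctrl, with an edgeR adjusted p of 0.000183. *Fabp1* and *Mmp7* stood apart from their lists there, since the other 5 enterocyte and the other 5 Paneth markers had log2 fold changes below 0 in Vehicle vs. Ctrl.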

How the results depend on the processing

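Of the 10 genes, 1 was called in Stress vs. Ctrl, against 3 with DESeq2, 2 with at least 10 counts in every library and 1 to 2 with a library left out. In CORT vs. Vehicle 1 was called, against 3 with DESeq2, 2 with its size factors in edgeR, 2 with no filter, 2 with at least 10 counts, 2 (*Id2* and *Id3*, not *Smad7*) with either pseudocount of filtered log2(FPKM), 0 with unfiltered log2(FPKM + 1), 2 with 12 libraries and 0 to 3 with a library left out. Counts between Vehicle and Ctrl and in the interaction stayed at 0. Pathway genes called were 2 under stress, against 4 with DESeq2, 1 with no filter, 1 in each log2(FPKM) fit, 4 with 12 libraries and 1 to 6 with a library left out, and 8 after corticosterone, against 10 with DESeq2, 5 with filtered log2(FPKM), 2 unfiltered and 1 to 5 with a library left out. Between Vehicle and Ctrl they were 0, against 2 with DESeq2, and in the interaction 1 (*Chrd*), against 2 with DESeq2, 0 with at least 10 counts and 0 with filtered log2(FPKM), where *Chrd* was not tested, 0 unfiltered and 0 to 1 with a library left out. Of 755 single-gene values under alternatives 50 changed sign, all among members that passed no threshold in the comparison concerned. Under stress these were *Bmpr2* (0.000665 with DESeq2 size factors and 0.00104 with at least 10 counts), *Smad5* (-0.00631 and -0.00695 in log2(FPKM)) and *Smad6* (0.00232 and 0.0219). After corticosterone they were *Bmpr1a* (0.013 with no filter) and *Smad5* (-0.0326 and -0.0355), and in the interaction *Bmpr1a* (0.0281 and 0.0292) and *Smad5* (0.0263 and 0.0286). With a library left out, log2 fold changes ran under stress from -1.07 to 0.0126 for *Bambi*, -0.0884 to 0.044 for *Bmpr1a*, -0.105 to 0.103 for *Bmpr2* and -0.258 to 0.345 for *Smad6*. After corticosterone they ran from -0.0472 to 0.0471 for *Bmpr1a*, -0.00044 to 0.123 for *Smad1* and -0.0143 to 0.115 for *Smad5*. Between Vehicle and Ctrl they ran from -1.37 to 0.439 for *Bambi*, -0.065 to 0.0363 for *Bmpr1a*, -0.0654 to 0.147 for *Bmpr2*, -0.255 to 0.0774 for *Id1*, -0.165 to 0.00736 for *Smad1* and -0.136 to 0.000632 for *Smad5*. In the interaction they ran from -0.0888 to 0.0477 for *Bmpr1a*, -0.299 to 0.037 for *Id1*, -0.359 to 0.0786 for *Id3*, -0.0279 to 0.142 for *Smad1* and -0.0983 to 0.0304 for *Smad5*. The causes were not tested. No paired analysis was possible because each pair of groups compared shares 1 library number that stands alone, and the numbers 1 and 2 are joined in 1 Stress library.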
